A study of Mus musculus with 6 samples.

Results

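The 37 genes of the mouse mitochondrial genome were followed in polyadenylated RNA from the hippocampus of mice that had lost 2 histone demethylases and of wild-type (WT) mice. Members were all genes whose symbol starts with mt-. There were 37 of them among 48795 gene identifiers, namely 13 mRNAs, 2 rRNAs and 22 tRNAs. The double knockout (KO), labelled ifKO, carried floxed Kdm1a and Kdm5c alleles and CamKIIα-CreERT2, a recombinase that works only after tamoxifen and is limited to principal neurons of the forebrain. Recombination removes exons 5 and 6 of Kdm1a and exons 11 and 12 of Kdm5c. Mice of both groups received tamoxifen, the age at that time being 2 to 3 months, on a C57BL/6J background. The labels do not say whether WT mice carried floxed alleles or the recombinase, so an effect of these cannot be told apart from the deletion. There were 3 libraries per group, and whether each is a different mouse is not stated in the labels. The p-values therefore rest on the spread among these 6 libraries, which may be technical.

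Mitochondrial DNA is a small circular genome held in many copies in the organelle. Its mRNAs encode core subunits of complexes I, III, IV and V, the enzymes that pump protons and make ATP, and its rRNAs and tRNAs serve the organelle's own ribosomes. Both strands are transcribed into long precursors by the polymerase Polrmt, and tRNAs that lie between the other genes mark where the precursors are cut. Most of the mRNAs and the rRNAs then receive adenine tails. All other subunits and every factor of transcription, RNA processing and translation are encoded in the nucleus. In the brain, oxidative phosphorylation meets most of the energy demand of synaptic activity.

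The 5 mitochondrial mRNAs whose sequence is almost wholly present in the nucleus as well received few counts. Each member was cut into all its 50-base windows, and a window was called shared if it occurred without mismatch in a nuclear transcript of GENCODE M21. In mt-Co2 every window was shared, and in mt-Atp6, mt-Co3, mt-Nd4l and mt-Nd3 99.5, 99.9, 98.8 and 98% were. These 5 mRNAs had 1 to 58 counts per library. In mt-Co1 the share was 51.1% and in mt-Nd4 62.2%, while mt-Nd1, mt-Nd6, mt-Cytb and mt-Rnr1 had none. The closest copies of the 5 mRNAs, of mt-Nd4 and of the end of mt-Co1 form a row of pseudogenes on chromosome 1, which spans 4663 bases from 24611535 to 24616197 (GRCm38, minus strand) in the same gene order as the mitochondrial genome. The copies of mt-Co2 (Gm28661), mt-Atp6 (Gm10925), mt-Co3 (Gm28437) and mt-Nd4l (Gm10222) matched without a mismatch over the aligned bases, and the copy of mt-Nd3 (Gm28438) had 1 mismatch in 345. The beginning of mt-Co2, a core subunit of cytochrome c oxidase, is shown with that of its chromosome 1 copy and of a second copy on chromosome 2, because the first cannot be told from the mitochondrial gene by sequence and the second can. Capitals mark bases that differ from mt-Co2.
mt-Co2, chrM:7013-7132, plus strand: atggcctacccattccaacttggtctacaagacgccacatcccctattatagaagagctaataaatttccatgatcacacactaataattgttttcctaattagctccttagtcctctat
Gm28661, chr1:24615446-24615565, minus strand: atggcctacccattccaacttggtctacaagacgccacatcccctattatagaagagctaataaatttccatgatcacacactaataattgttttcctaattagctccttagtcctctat
Gm13341, chr2:22587843-22587962, minus strand: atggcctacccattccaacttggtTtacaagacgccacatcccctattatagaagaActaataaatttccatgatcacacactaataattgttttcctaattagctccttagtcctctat

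The chromosome 2 copy, which differs from mt-Co2 at 2 of these 120 bases, had 701 to 1142 counts per library. The chromosome 1 copy, which does not differ, had 33 to 43, and mt-Co2 itself had 35 to 58. None of these 3 passed the threshold between groups (adjusted p = 0.510 for Gm13341, 0.634 for Gm28661 and 0.786 for mt-Co2, from the quasi-likelihood test of edgeR, Benjamini-Hochberg adjusted). The pseudogenes are named here after their values were seen. mt-Atp8, a small subunit of ATP synthase, had 1 to 3 counts per library although none of its windows was shared. Most of it lies in the 233 bases between the copied stretches of mt-Co2 and mt-Atp6, and an equal 233 bases separate their copies on chromosome 1, a gap that the transcript search did not cover. The sources used here do not give how reads with more than 1 possible origin were treated, and the part of the copies in the low counts was not tested. Levels of these 6 mRNAs are therefore reported as counted, and nothing is said of complex V beyond them.

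**Figure D1:**
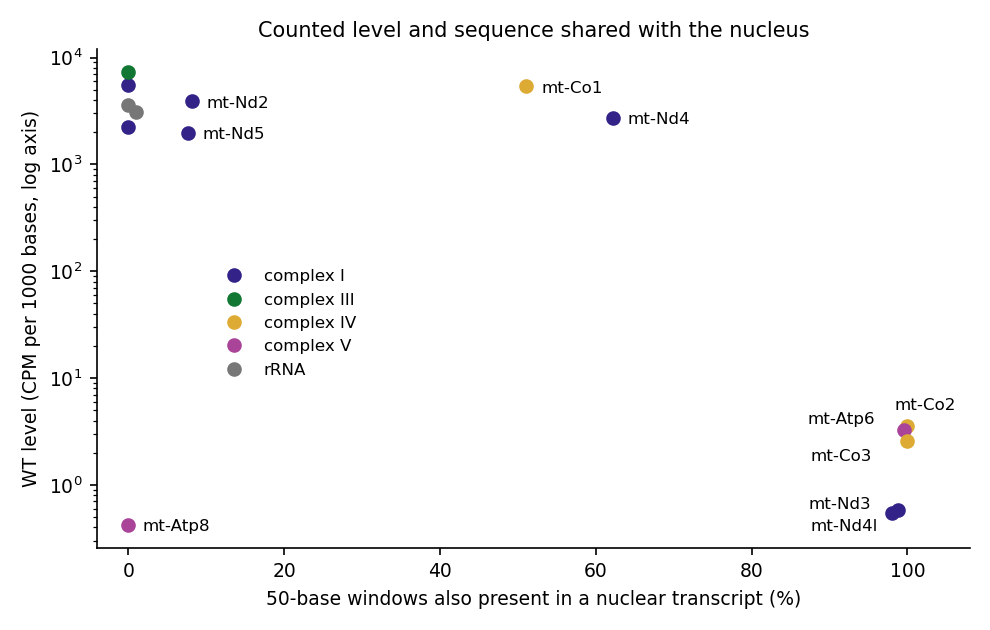
WT level of the 13 mitochondrial mRNAs and 2 rRNAs, as mean counts per 1000000 (CPM) per 1000 bases on a log axis, against the percentage of each gene's 50-base windows that also occur in a nuclear transcript. Colours give the complex or class, and the 5 mRNAs at the right lie between 0.546 and 3.54, while the 9 members in the upper part lie between 1981 and 7343. mt-Atp8 stands alone at the lower left, at 0.420.

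Mitochondrial transcripts made up a smaller share of the libraries of the double KO. Over all 37 genes the share was 4.32, 4.25 and 4.21% of gene counts in WT replicates 1 to 3, against 3.82, 3.67 and 3.88% in KO replicates 1 to 3. The groups did not overlap, the means being 4.26 ± 0.0554% and 3.79 ± 0.108% (SD, n = 3 each), which is 11.0% lower. No p is given for a sum over members, and with 3 against 3 libraries an exact two-sided permutation test could not go below 0.10. Total counts were 19309576 to 19700249 per library. A share of RNA does not separate fewer cells of a type, fewer mitochondrial genomes per cell and less RNA per genome, which cannot be told apart here.

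Complexes I and III and the rRNAs shared in the lower level, and complex IV overlapped between groups. The 7 mRNAs of complex I, the NADH dehydrogenase, held 1.80, 1.84 and 1.68% of counts in WT and 1.54, 1.45 and 1.59% in the KO. The complex III mRNA mt-Cytb held 0.807, 0.879 and 0.814% in WT and 0.733, 0.712 and 0.744% in the KO. In both classes every KO library was below every WT library, with means 13.8% and 12.4% lower. The 3 mRNAs of complex IV held 0.874, 0.753 and 0.842% in WT and 0.779, 0.766 and 0.781% in the KO, and WT replicate 2 lay below all 3 KO libraries. Nearly all of the complex IV share was mt-Co1, at 0.874, 0.752 and 0.841% in WT and 0.779, 0.765 and 0.781% in the KO. The rRNAs held 0.838, 0.774 and 0.868% in WT and 0.767, 0.735 and 0.759% in the KO, without overlap and with a mean 8.78% lower. The tRNAs held only 790 to 1096 counts per library, and the complex V mRNAs mt-Atp6 and mt-Atp8 at most 56 and 3.

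**Figure D2:**
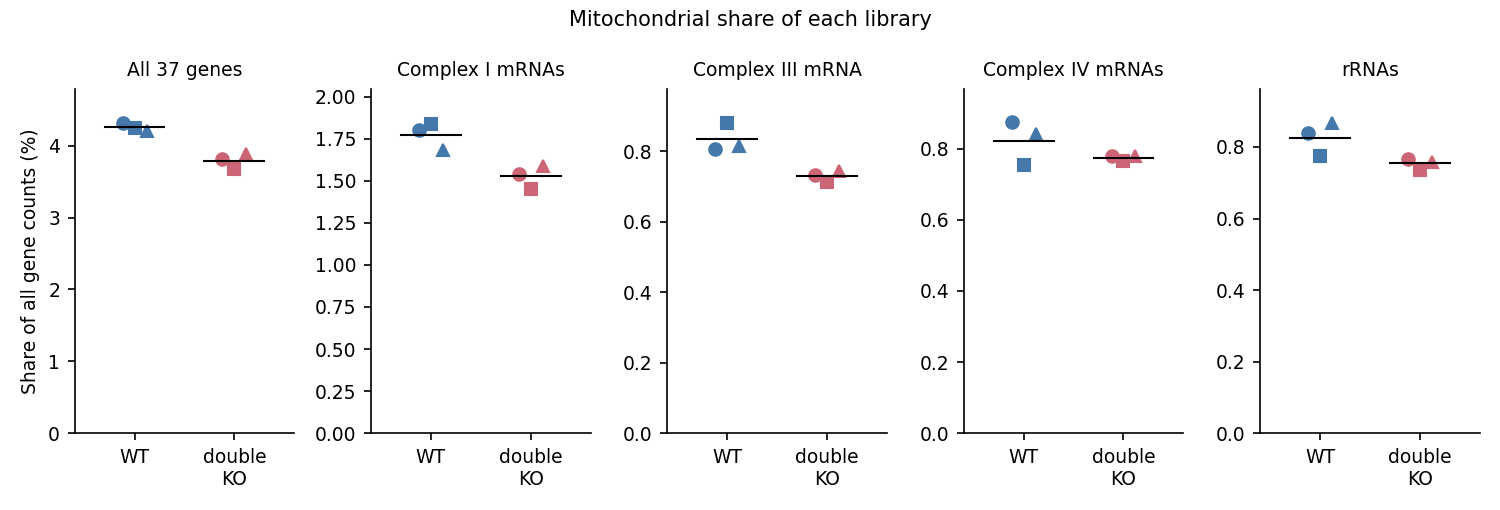
Share of all gene counts in each library, in percent, for the 37 mitochondrial genes together and for complex I, III and IV mRNAs and rRNAs (circle, square and triangle for replicates 1, 2 and 3, blue for WT, red for double KO, line for the mean). The total lies at 4.21 to 4.32% in WT and 3.67 to 3.88% in the double KO, and only the complex IV panel shows overlapping groups.

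The lower mitochondrial share went along with higher summed markers of astrocytes, oligodendrocytes and choroid plexus. Kdm1a fell from 73.7 ± 3.95 to 38.6 ± 1.29 counts per 1000000 (CPM, SD, n = 3 each), and Kdm5c measured 79.5 ± 2.97 and 70.6 ± 4.67 CPM (edgeR adjusted p = 4.32e-07 and 0.143), counted over whole genes and not the deleted exons alone. The summed level of 6 astrocyte markers was 2252 to 2639 CPM in WT and 2716 to 2767 CPM in the KO, and of 6 oligodendrocyte markers 4941 to 5360 and 5501 to 6190 CPM. That of 6 choroid plexus markers was 30.0 to 44.9 and 58.5 to 123 CPM. In these lists the groups did not overlap and 1 of 6, 1 of 6 and 1 of 5 tested genes rose, as did 1 of 6 vascular markers, against 5.90% of all genes tested. Of 6 markers of hippocampal principal neurons 1 fell, Neurod6, against 1.05% of all genes tested. Ranges overlapped for 6 markers each of hippocampal principal neurons (6619 to 7010 and 6192 to 6783 CPM), interneurons (816 to 859 and 768 to 838), microglia (309 to 352 and 352 to 402) and vascular cells (291 to 311 and 308 to 328). They also overlapped for 5 erythrocyte genes (28.6 to 71.9 and 57.2 to 73.0 CPM), 6 RNAs retained in the nucleus (10508 to 12620 and 9931 to 11081) and 65 histone genes whose mRNAs lack an adenine tail (82.5 to 124 and 73.1 to 88.4). Taken singly, 3 astrocyte, 3 oligodendrocyte, 1 choroid plexus, 4 microglia and 1 vascular markers had every KO library above every WT library (14.0% of all genes tested). The reverse held for 1 principal neuron marker, 1 interneuron marker, 1 nuclear retained RNA and 2 histone genes (11.2% of all genes tested). No marker was at 0 in all libraries except 24 of the histone genes. The part of these differences in the mitochondrial result was not tested.

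Of the 37 members, 9 held 99.9% of the mitochondrial counts, with 19010 to 172191 counts each in every library, and the other 28 had at most 691 in any library. The 9 were the mRNAs mt-Nd1, mt-Nd2, mt-Nd4, mt-Nd5, mt-Nd6, mt-Cytb and mt-Co1 and both rRNAs. mt-Co1 and mt-Cytb had the most and second most counts of all genes in the table. Per 1000 bases, mt-Cytb stood highest in WT at 7343 ± 359 CPM (SD, n = 3). It was followed by mt-Nd1 at 5539 ± 291 and mt-Co1 at 5368 ± 404, whose WT ranges overlapped. Then came mt-Nd2 at 3881 ± 121, mt-Rnr1 at 3630 ± 64.1, mt-Rnr2 at 3076 ± 273 and mt-Nd4 at 2732 ± 264 CPM per 1000 bases. The last 2 of these overlapped in WT, and mt-Nd6 (2238 ± 71.7) and mt-Nd5 (1981 ± 42.8) were lowest. In the KO the order was the same except that mt-Co1 (4987 ± 49.1) stood before mt-Nd1 (4850 ± 223), and these again overlapped, as did mt-Nd2 and mt-Rnr1. The lengths used for mt-Co1 and mt-Nd4 include the stretches shared with the nucleus (51.1% and 62.2% of windows). If few reads were counted there, as in the wholly shared mRNAs, their levels per 1000 bases are too low. Their places in this order, also relative to mt-Cytb, are therefore not settled.

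Filtering for low counts left 21 members among 16861 genes tested, and 7 of the 21 fell and 0 rose in the double KO (adjusted p under 0.05, quasi-likelihood test of edgeR, Benjamini-Hochberg adjusted over all genes). Of all genes tested 6.95% changed, 1.05% down and 5.90% up. At an unadjusted p under 0.05, 1 of the 21 was higher, the tRNA mt-Ta, and DESeq2 and limma-voom each gave 7 falls and 0 rises. All 5 tested mRNAs of complex I fell, as did the complex III mRNA and 1 of 2 rRNAs. Of 3 complex IV mRNAs, 1 complex V mRNA and 9 tRNAs tested, 0 changed in edgeR, DESeq2 or limma-voom, and mt-Ta was the only one of these 13 with an unadjusted p under 0.05. Levels below are in CPM scaled with TMM, and fold changes are log2 of double KO over WT.

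The 5 complex I mRNAs with high counts fell, with changes of -17.7 to -12.4%, and in each the 3 KO libraries lay below the 3 WT libraries. mt-Nd2 (ENSMUSG00000064345, chrM:3914-4951), a subunit of the proton-pumping membrane arm, measured 4069, 4130 and 3888 CPM in WT and 3303, 3131 and 3580 CPM in the KO. Its log2 fold change of -0.27 (SE 0.0523) had the smallest adjusted p of the members, 0.00479 in edgeR, and corresponds to a change of -17.1% (95% interval -23.4 to -10.4%). mt-Nd4 (ENSMUSG00000064363, chrM:10167-11544), another membrane arm subunit, measured 3595, 4183 and 3519 CPM in WT and 3149, 2983 and 3168 CPM in the KO. WT replicate 2 was the highest, and the log2 fold change was -0.28 (SE 0.0608, edgeR adjusted p = 0.0109). mt-Nd5 (ENSMUSG00000064367, chrM:11742-13565), at the far end of the membrane arm, measured 3686, 3626 and 3531 CPM in WT and 3158, 2968 and 3191 CPM in the KO. It fell by 14.1% (log2 fold change -0.22, SE 0.0450, edgeR adjusted p = 0.0077), and its SD was 78.0 CPM in WT and 120 CPM in the KO.

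mt-Nd1 (ENSMUSG00000064341, chrM:2751-3707), which lies where the membrane arm meets the arm that takes up NADH, measured 5516, 5400 and 4987 CPM in WT and 4645, 4425 and 4853 CPM in the KO. The lowest WT and the highest KO library stood close together, and the log2 fold change was -0.19 (SE 0.0501, edgeR adjusted p = 0.0333). mt-Nd6 (ENSMUSG00000064368, chrM:13552-14070) is the only mRNA of the genome on the minus strand, where it overlaps the end of mt-Nd5 by 14 bases. It measured 1180, 1186 and 1119 CPM in WT and 981, 980 and 1041 CPM in the KO (log2 fold change -0.21, SE 0.050, edgeR adjusted p = 0.0170). The ratio of mt-Nd6 to mt-Nd5 counts, one gene from each strand, was 0.320, 0.327 and 0.317 in WT and 0.311, 0.330 and 0.326 in the KO, so the groups overlapped. Whether counting used strand is not stated, so antisense reads can be part of both. The ratio also depends on how far each mRNA carries an adenine tail, since the RNA was polyadenylated. mt-Nd3 and mt-Nd4l had 1 to 5 counts per library and were not tested.

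mt-Cytb (ENSMUSG00000064370, chrM:14145-15288), the cytochrome b of complex III, measured 8101, 8869 and 8232 CPM in WT and 7259, 7097 and 7411 CPM in the KO. It fell by 13.6% (95% interval -19.1 to -7.75%; log2 fold change -0.21, SE 0.0442, edgeR adjusted p = 0.00854), with WT replicate 2 highest. mt-Co1 (ENSMUSG00000064351, chrM:5328-6872), the catalytic subunit of complex IV, measured 8777, 7589 and 8513 CPM in WT and 7708, 7627 and 7778 CPM in the KO. Here WT replicate 2 was the lowest of all 6 libraries, and the threshold was missed (log2 fold change -0.11, SE 0.0508, edgeR adjusted p = 0.263). With a 95% interval of -13.9 to 0.205%, the change could be nil or as large as that of mt-Nd1. Without WT replicate 2 the log2 fold change of mt-Co1 was -0.17 with an edgeR adjusted p of 0.0061. This was the only 1 of 13 alternatives in which mt-Co1 passed. Leaving out WT replicate 1 instead gave -0.06 (edgeR adjusted p = 0.579). The other mRNAs of complex IV, mt-Co2 and mt-Co3, and mt-Atp6 of complex V had 29 to 58 counts per library. Their log2 fold changes were -0.14 (SE 0.219), -0.29 (SE 0.210) and -0.27 (SE 0.255), with edgeR adjusted p-values of 0.786, 0.493 and 0.60. mt-Co3 was lower in all 3 KO libraries in CPM, but its counts overlapped, at 40, 39 and 39 in WT and 29, 29 and 40 in the KO.

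The small-subunit rRNA fell, and the large-subunit rRNA missed the threshold and passed in only 1 of 13 alternatives. mt-Rnr1 (ENSMUSG00000064337, chrM:70-1024), the 12S rRNA, measured 3457, 3411 and 3532 CPM in WT and 3083, 2988 and 3005 CPM in the KO. Both groups were tight, and it fell by 12.7% (log2 fold change -0.20, SE 0.0418, edgeR adjusted p = 0.00974). mt-Rnr2 (ENSMUSG00000064339, chrM:1094-2675), the 16S rRNA, measured 4956, 4396 and 5247 CPM in WT and 4507, 4343 and 4558 CPM in the KO. WT replicate 2 lay among the KO libraries, and the log2 fold change was -0.12 (SE 0.0575, edgeR adjusted p = 0.252). Without WT replicate 2 it was -0.19 with an edgeR adjusted p of 0.00886, and without WT replicate 3 it was -0.07 (edgeR adjusted p = 0.47). These 2 rRNAs, like all members, were counted in libraries of polyadenylated RNA, so their level depends on their tails as well as on their amount.

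**Figure D3:**
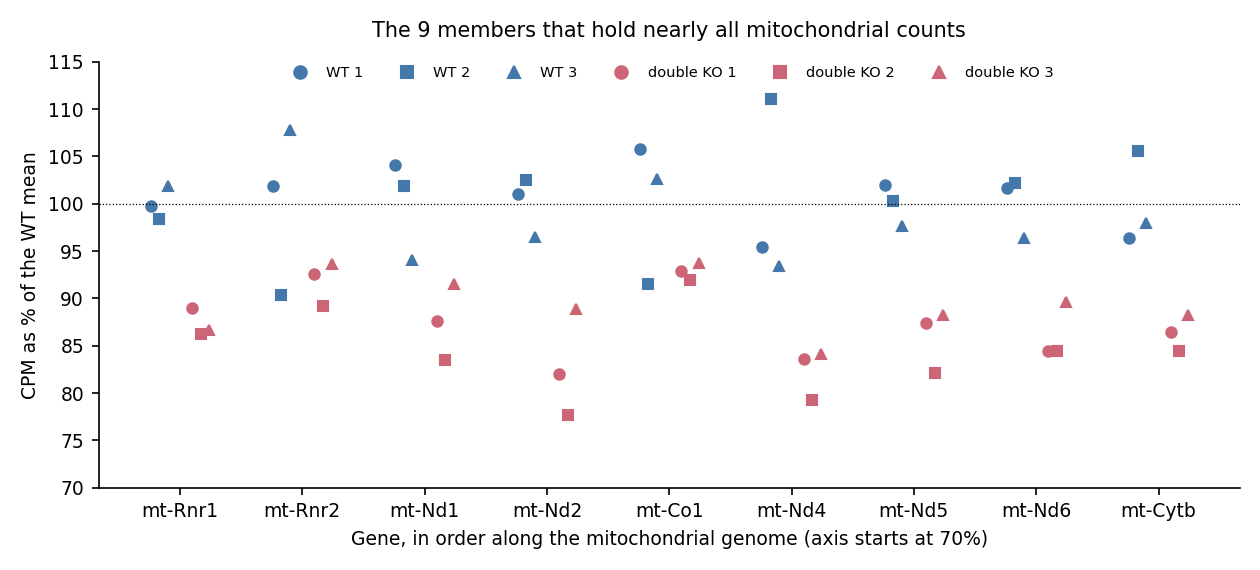
CPM of the 9 high-count members in each library as a percentage of the WT mean, in order along the mitochondrial genome (symbols for replicates 1, 2 and 3, blue for WT, red for double KO, axis from 70%). In 7 genes every red symbol lies below every blue one, and in mt-Rnr2 and mt-Co1 WT replicate 2 lies among or below the KO libraries.

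WT replicate 2 also set most of the spread in composition within the mitochondrial mRNAs. mt-Co1 made up 25.1, 21.7 and 25.2% of mitochondrial mRNA counts in WT and 25.5, 26.1 and 25.1% in the KO. mt-Nd4 made up 10.3, 12.0 and 10.4% in WT and 10.4, 10.2 and 10.2% in the KO. In both genes WT replicate 2 stood apart and the other 5 libraries lay close together. Complex I mRNAs together held 51.7, 52.9 and 50.4% in WT and 50.4, 49.6 and 51.0% in the KO, and mt-Cytb 23.2, 25.3 and 24.4% against 24.0, 24.3 and 23.9%. The groups overlapped for all of these shares, for mt-Nd2 (11.6, 11.8 and 11.5% against 10.9, 10.7 and 11.5%) and for the ratio of mRNA to rRNA counts (4.15, 4.48 and 3.85 against 3.98, 3.99 and 4.10). Within the mitochondrial transcripts no class was thus separated between the groups, and whether complexes I and III fell more than complex IV was not tested.

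Mitochondrial tRNAs were few in these libraries, and 0 of 9 tested passed the threshold. Mature tRNAs carry no adenine tail, and each of the 22 genes is 59 to 75 bases long. In 6 of them (mt-Tw, mt-Ty, mt-Td, mt-Tk, mt-Tg and mt-Th) no library had a count. For a library taken by itself, 0 counts allow up to 3 by counting error alone. With 0 in every library the limit per library is lower, and it was not calculated. Another 7 tRNAs had at most 11 counts in any library. mt-Tc, which decodes cysteine, held 57.1% of all tRNA counts. It is shown with mt-Ta, which decodes alanine and lies near it on the same strand, as the most abundant tRNA and the one with the largest difference.
mt-Tc, chrM:5192-5257, minus strand: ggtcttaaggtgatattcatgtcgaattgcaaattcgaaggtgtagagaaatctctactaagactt
mt-Ta, chrM:5018-5086, minus strand: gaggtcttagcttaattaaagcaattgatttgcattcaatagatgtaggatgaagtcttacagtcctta

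mt-Tc had 628, 387 and 618 counts in WT and 436, 508 and 691 in the KO. The groups overlapped, with 28.1 ± 6.85 and 27.8 ± 6.57 CPM (SD, n = 3 each; edgeR adjusted p = 0.973). mt-Ta had 19, 22 and 24 counts in WT and 24, 40 and 40 in the KO. KO replicate 1 was within the WT range and the other 2 were above it, and the call was missed (log2 fold change 0.66, SE 0.263, edgeR adjusted p = 0.172). mt-Tp (proline) and mt-Tq (glutamine) had log2 fold changes of 0.20 (SE 0.322) and 0.04 (SE 0.166), with edgeR adjusted p-values of 0.786 and 0.932. The other tested tRNAs had negative ones, of -0.45 (SE 0.238) for mt-Ti, -0.29 (SE 0.201) for mt-Tl1, -0.22 (SE 0.247) for mt-Te, -0.06 (SE 0.168) for mt-Tm, -0.05 (SE 0.296) for mt-Ts2 and -0.02 (SE 0.172) for mt-Tc. With standard errors of this size, falls as small as those of the mRNAs were not detectable in the tRNAs.

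**Figure D4:**
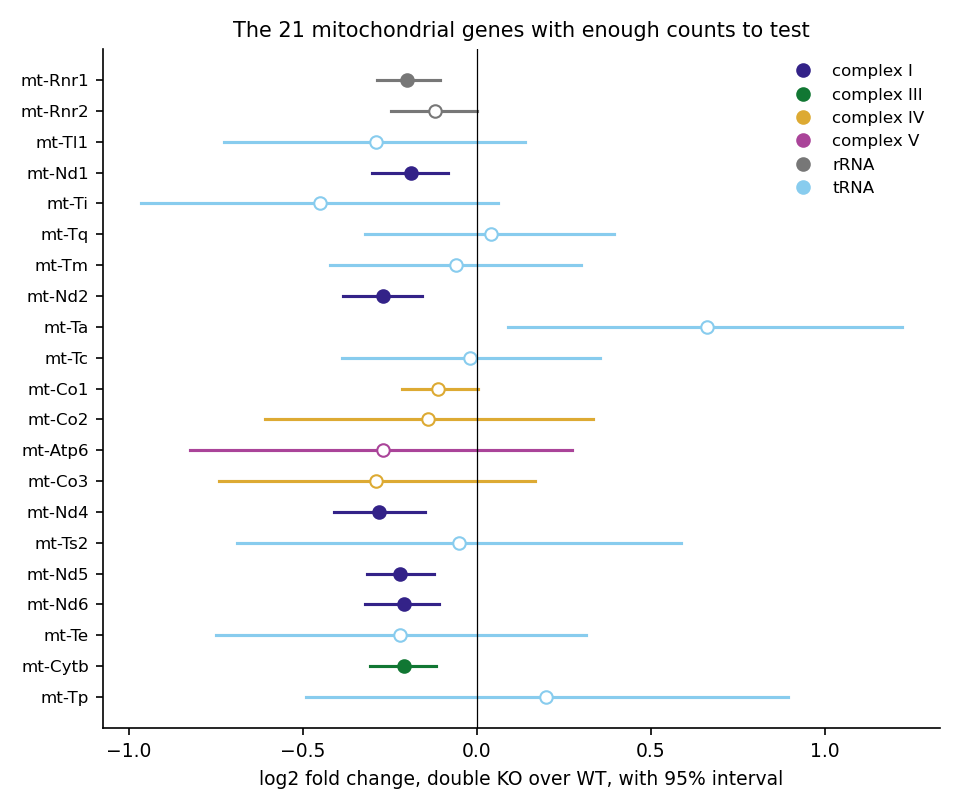
log2 fold change of double KO over WT with its 95% interval for the 21 tested members in genome order, coloured by complex or class, with filled symbols for an adjusted p under 0.05. The 7 filled symbols lie between -0.28 and -0.19, and intervals of the tRNAs and of mt-Co2, mt-Co3 and mt-Atp6 are wide and cross 0, except that of mt-Ta.

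The direction of the 9 high-count members was negative in each of the 13 alternatives run, but only mt-Nd2 passed in all of them (edgeR, DESeq2 or limma-voom adjusted p of 0.000102 to 0.0321). The number of members that fell was 2 without KO replicate 2 and 2 without KO replicate 3. Without KO replicate 2, mt-Rnr1, mt-Nd1, mt-Nd4, mt-Nd5 and mt-Nd6 missed the threshold with edgeR adjusted p-values of 0.0554, 0.160, 0.0568, 0.0548 and 0.0914. Without KO replicate 3, mt-Rnr1, mt-Nd1, mt-Nd4, mt-Nd6 and mt-Cytb had 0.0983, 0.0775, 0.0546, 0.0539 and 0.0512. mt-Nd1 and mt-Nd6 also missed it without WT replicate 1 (edgeR adjusted p = 0.134 and 0.0664) and without KO replicate 1 (0.0882 and 0.0832). mt-Nd1 did so as well without WT replicate 2 (0.0521) and with scaling by library size alone (0.0587). The log2 fold changes of the 7 genes that fell were -0.25 to -0.16 without KO replicate 2 and -0.32 to -0.19 without KO replicate 3, against -0.28 to -0.19 with all libraries. Falls among all genes went from 177 to 67 and 48 in the same fits. In CPM, 8 of the 21 tested members had every KO library below every WT library and 0 the reverse, against 11.2% and 14.0% of all tested genes (25.2% in either direction).

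Nuclear genes picked for a high WT level leaned towards lower values with few calls. The pick used the WT mean alone, which by itself tilts such a list towards lower KO values. The size of this tilt was not tested, so the lean is given as counted. Of 63 nuclear genes at 1000 CPM or more in WT, 40 had a negative log2 fold change, against 8736 of all 16861 genes tested. Among the 63, 2 fell and 2 rose, against 1.05% and 5.90% of all genes tested. At an unadjusted p under 0.05 in edgeR 10 were lower and 4 higher, against 1292 and 2120 of all genes tested. In CPM 9 had every KO library below every WT library and 4 above, against 11.2% and 14.0% of all genes tested. The 63 genes had a median log2 fold change of -0.04, against a median of -0.21 for the 9 high-count members and -0.01 for all 16861 genes. The 2 that fell were Snap25, a protein of synaptic vesicle fusion, and Map1a, a microtubule protein of neurons, and the 2 that rose were the lipid carrier Apoe and the myelin gene Mbp, all named after their values were seen.

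Nuclear genes for the same complexes did not share the lower level. Of 83 tested nuclear genes of complexes I to V, 0 rose and 0 fell in edgeR, DESeq2 or limma-voom, with 1 higher and 1 lower at an unadjusted p under 0.05 in edgeR. Their median log2 fold changes were 0.01 over 36 complex I genes, -0.01 over 4 of complex II, which has no mitochondrial subunit, 0.02 over 9 of complex III, 0.02 over 16 of complex IV and 0.03 over 18 of complex V. Together they held 0.894, 0.763 and 0.924% of counts in WT and 0.849, 0.888 and 0.889% in the KO, so the groups overlapped, with WT replicate 2 lowest. Mitochondrial mRNA counts per nuclear count of these genes were 3.89, 4.55 and 3.61 in WT and 3.60, 3.30 and 3.50 in the KO. The groups did not overlap, though WT replicate 3 and KO replicate 1 differed only in the second decimal.

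The gene with the smallest p of each list is given here. Ndufs4, a complex I subunit required for its assembly, went from 58.1 ± 5.32 to 51.5 ± 0.276 CPM (SD, n = 3 each; log2 fold change -0.17, SE 0.0717, edgeR adjusted p = 0.184). Without WT replicate 2 it passed (-0.25, edgeR adjusted p = 0.0207). Sdha, the flavoprotein of complex II, went from 437 ± 14.1 to 410 ± 5.52 CPM (edgeR adjusted p = 0.345), and the complex III hinge protein gene Uqcrh from 113 ± 13.7 to 119 ± 3.78 CPM (edgeR adjusted p = 0.698). Cox7a1, the heart and muscle isoform of a complex IV subunit, had 21, 15 and 19 counts in WT and 25, 41 and 29 in the KO (log2 fold change 0.77, SE 0.274, edgeR adjusted p = 0.124). Atp5g2, a gene for the membrane ring of complex V, went from 6.81 ± 0.856 to 8.16 ± 1.17 CPM (edgeR adjusted p = 0.337).

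Among factors that make and process mitochondrial RNA most values were slightly below WT, and 0 of them passed. Of all 16861 genes tested, 8736 had a negative log2 fold change and 1292 were lower at an unadjusted p under 0.05 in edgeR. Of 9 genes for mitochondrial transcription 8 had a negative log2 fold change, with a median of -0.14 and 0 calls in edgeR, DESeq2 or limma-voom (2 lower at an unadjusted p under 0.05 in edgeR). The smallest p was that of Mterf1a, from a family of termination factors, which had 54, 65 and 40 counts in WT and 36, 29 and 36 in the KO (log2 fold change -0.67, SE 0.222, edgeR adjusted p = 0.0946). It passed without WT replicate 3 (-0.84, edgeR adjusted p = 0.0321). Of 21 genes for RNA processing and decay 17 were lower, with a median of -0.08. The smallest p was that of Pnpt1, the mitochondrial polynucleotide phosphorylase (32.9 ± 3.83 to 28.6 ± 1.09 CPM, edgeR adjusted p = 0.222). That list had 0 calls in the 3 tools and 1 lower gene at an unadjusted p under 0.05. Every KO library was below every WT library in CPM for 4 of the 9 transcription genes and 2 of these 21, and above for 0. Over the 172 tested genes of all lists for mitochondrial RNA and DNA these counts were 21 and 6, against 11.2% and 14.0% of all genes tested.

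Genes for tRNA handling and translation also had 0 calls, and 2 of their 3 lists had medians close to the -0.01 of all genes tested. In the list of tRNA and rRNA modification 9 of 14 were lower and the median was -0.02, with Trmu, a tRNA thiolation enzyme, at a log2 fold change of -0.21 (SE 0.0957, edgeR adjusted p = 0.229). In the list of mitochondrial aminoacyl-tRNA synthetases 16 of 20 were lower and the median was -0.12, with Mars2, the methionine enzyme, at 23.2 ± 2.63 and 19.4 ± 1.15 CPM (edgeR adjusted p = 0.151). Mars2 passed without WT replicate 3 (-0.35, edgeR adjusted p = 0.026). Of the 79 tested genes of mitochondrial ribosomal proteins 49 were lower, with a median of -0.02, and Mrpl35 had the smallest p (30.1 ± 1.89 to 25.5 ± 1.04 CPM, edgeR adjusted p = 0.0930). These 3 lists had 0 calls in edgeR, DESeq2 and limma-voom, and 1, 2 and 2 genes in turn were lower, and 0, 1 and 1 higher, at an unadjusted p under 0.05 in edgeR. In CPM 3, 6 and 4 genes in turn had every KO library below every WT library, and 0, 1 and 2 above, against 11.2% and 14.0% of all genes tested.

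In the last lists 1 gene each rose, and over all 172 tested genes of the lists for mitochondrial RNA and DNA 2 rose, against 5.90% of all genes tested. Of 17 genes for maintenance of mitochondrial DNA, Top1mt, a topoisomerase that relaxes it, had 268, 305 and 301 counts in WT and 370, 399 and 353 in the KO. Every KO library was above every WT library, and it rose from 15.1 ± 1.24 to 19.1 ± 1.34 CPM (SD, n = 3 each; log2 fold change 0.34, SE 0.0960, edgeR adjusted p = 0.0487). Of 12 regulators of mitochondrial biogenesis, Ppara, a nuclear receptor for fatty acids that promotes their oxidation, had 39, 46 and 53 counts in WT and 80, 68 and 72 in the KO (log2 fold change 0.65, SE 0.178, edgeR adjusted p = 0.0417). Both were close to the threshold. DESeq2 (adjusted p = 0.0670 for Top1mt and 0.115 for Ppara), a replicate block (edgeR adjusted p = 0.0594 and 0.0667) and leaving out WT replicate 1 (0.160 and 0.142), WT replicate 2 (0.0526 and 0.0945) or any 1 KO library (0.0770 to 0.200 and 0.0741 to 0.149) ended both calls. In these lists 0 genes fell in edgeR, DESeq2 or limma-voom, with 1 and 0 lower at an unadjusted p under 0.05 in edgeR, and the medians were -0.07 and -0.03.

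**Figure D5:**
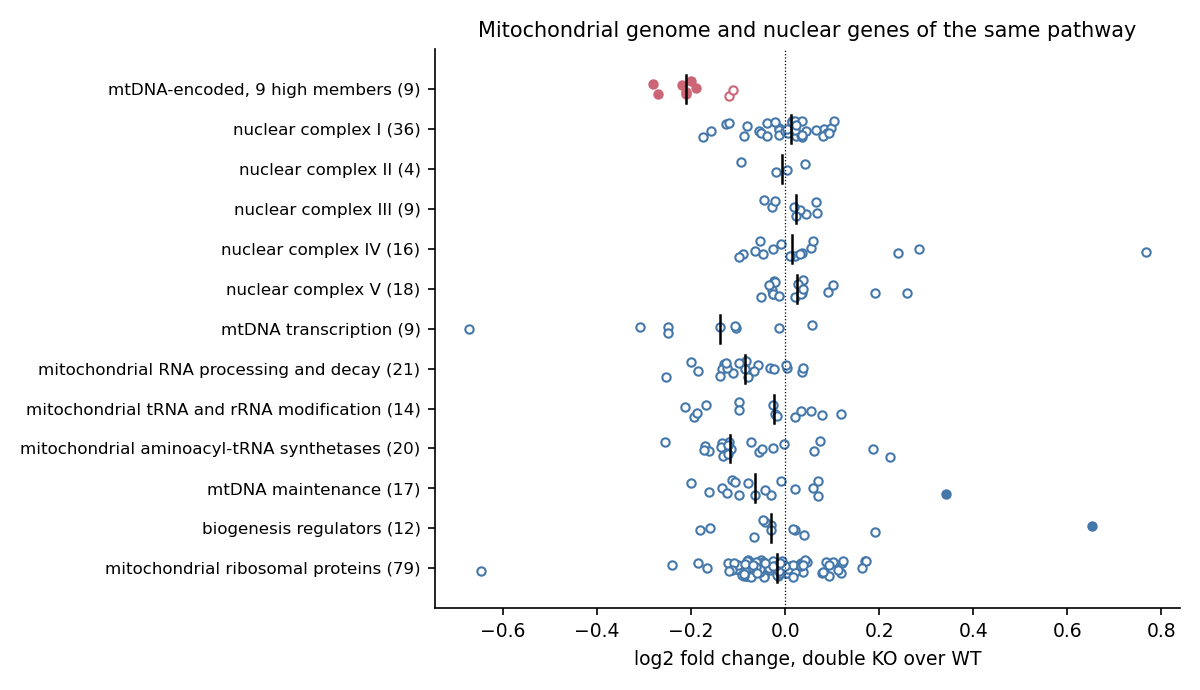
log2 fold change of double KO over WT for the 9 high-count mitochondrial members (red) and for the tested genes of 12 nuclear lists (blue), with filled symbols for an adjusted p under 0.05 and a black line at each median. The mitochondrial median is -0.21, medians of the nuclear complex lists lie between -0.01 and 0.03, and only Top1mt and Ppara are filled among nuclear genes.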

How the data were processed

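The authors deposited raw read counts per gene, with a column for each of the 6 libraries. The submitters' processing notes name cutadapt 1.18, HISAT2, HTSeq 0.11.1 and the mouse build GRCm38 (mm10). Not given in the sources used here: the HISAT2 version, annotation release, strand setting and handling of multiply mapped reads. Identifiers were matched to GENCODE M21 (GRCm38), which left 360 with 0.0512% of the counts unmatched. The complex I gene Ndufb1 of the nuclear lists found no match.

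Genes were filtered with filterByExpr (minimum count 10, minimum total 15) and scaled with TMM. Double KO was set against WT in the quasi-likelihood test of edgeR (model: group alone), Benjamini-Hochberg adjusted over all genes, at a threshold of 0.05. The SE was derived from the log2 fold change and its F statistic. Shares are percentages of all gene counts of a library. Nuclear copies were sought by exact 50-base windows on both strands and by BLAST among GENCODE transcripts, which miss unannotated copies. The script was tested on simulated data. Alternatives were RLE scaling, library size alone, scaling from nuclear genes only, DESeq2, limma-voom, no filter, a replicate block and leaving out each library. Libraries of a group differed beyond sampling noise (chi-square per gene of 3.44 to 9.97).

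All tested members were named, with up to 3 called genes, or the 1 with the smallest p, of each nuclear list. Members and lists were chosen with earlier results of these data known. Software was R 4.3.3, edgeR 4.0.16, limma 3.58.1 and DESeq2 1.42.0. Sequences are from GENCODE M21.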

Additional observations from a re-analysis of the deposited data

How the results depend on the processing

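The direction of the mitochondrial share was the same in each alternative run. The double KO minus WT difference of -0.469 percentage points was -0.366 without mt-Cytb, the member with the most WT counts, and -0.360 without members with at least 50% of windows in a nuclear copy. For mRNAs -0.396 became -0.293 and -0.287. A difference in points shrinks when members that are lower in the KO leave the sum. The ratio of KO to WT means was 0.89 with all members, 0.893 without mt-Cytb and 0.883 without the members with a nuclear copy. For mRNAs it was 0.884, 0.887 and 0.872 in the same order. Within the mitochondrial mRNAs the complex I difference of -1.33 points became -0.206 without members with a nuclear copy, and complex IV gave no value there, since no member was left. Leaving out 1 library moved the number of mitochondrial genes that fell between 2 and 8, of all genes that fell between 48 and 323, of nuclear list genes that rose between 0 and 2 and of those that fell between 0 and 2. With no filter on low counts 279 genes fell instead of 177, and DESeq2 and the replicate block each gave 0 rises in the nuclear lists instead of 2. The other 154 values of this kind stayed within their limits. Same-numbered libraries did not deviate together (correlations 0.005, -0.009 and -0.024 over 16861 genes), so the replicate numbers were not taken as pairs. With a replicate block 960 genes rose and 149 fell, and the same 7 mitochondrial genes passed. Depth limits what can be said of the mRNAs with 1 to 58 counts and of the tRNAs.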
